A study of Rattus norvegicus with 6 samples.

Results

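The neuregulins are growth factors with an EGF-like domain, and the ErbB receptors are the tyrosine kinases of the EGF receptor family that bind them. The genes described here were chosen by symbol and are the ligands Nrg1, Nrg2, Nrg3 and Nrg4 and the receptors Erbb2, Erbb3 and Erbb4, which are 7 of the 30560 genes in the count tables. All 7 symbols were found. Single-nucleus RNA sequencing with a 5′ kit had been run on brain tissue of male wild-type (WT) rats, 12 weeks old, taken 48 h after permanent MCAO, in which the middle cerebral artery on the right side was closed, or after a Sham operation. The tissue came from the coronal levels in which the lesions were widest, and each of the 6 libraries pooled nuclei from several rats. Sham L and Sham R were the left and right hemispheres of the same 4 Sham rats. mMCAO contra and mMCAO ipsi were the hemispheres opposite to and on the side of a moderate infarct in 3 rats, and sMCAO contra and sMCAO ipsi were those of 4 rats with a severe infarct. The tests used 3 groups of 2 libraries each, named Sham, MCAO contra and MCAO ipsi. Because hemispheres and pools stood in for animals, the p-values measured only the spread between these libraries, and moderate and severe infarction, with 1 library each per side, were compared without a test.

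Neuregulins are mostly made as membrane-bound precursors that proteases such as Bace1 and Adam proteins cut. Nrg1 and Nrg2 bind Erbb3 and Erbb4, whereas Nrg3 and Nrg4 bind Erbb4. Erbb2 has no known ligand of its own and works as a partner of the others, and Erbb3 has little kinase activity and depends on a partner. In the forebrain, Erbb4 is best known from GABAergic interneurons, where it takes part in forming synapses, and in the oligodendrocyte lineage neuregulin signals have been tied to survival, differentiation and myelination.

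After the filters, 8232 to 13766 nuclei per library were kept, with a median of 1912 to 3240 UMIs (unique molecular identifiers, each marking 1 captured RNA molecule) per nucleus, and any library pair shared 1.36% to 2.16% of the barcodes of its smaller library. sMCAO ipsi had the lowest number of nuclei and the lowest median. Classes were rebuilt by a gate on 83 marker genes in which none of the 7 genes took part. A class is called X-like where at least 3 of its markers were found, and is otherwise called by its leading genes. Levels are UMIs of a gene per 1000000 UMIs of the class in that library (CPM), and they are compared between classes and libraries but not between genes, since no transcript length entered them. Unless stated otherwise, values per library follow the order Sham L, Sham R, mMCAO contra, sMCAO contra, mMCAO ipsi and sMCAO ipsi.

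Nrg3 gave 1514653 UMIs and was seen in 87.9% of all kept nuclei, Nrg1 gave 792077 UMIs in 72.9%, Erbb4 398962 in 52.0% and Nrg2 46618 in 39.5%. The other members were sparse. Nrg4 gave 1166 UMIs in 1.5% of nuclei, Erbb3 692 in 0.928% and Erbb2 27 in 0.0372%. Shares of nuclei with a UMI contain RNA that was free in the suspension, which is measured further on.

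**Figure D1:**
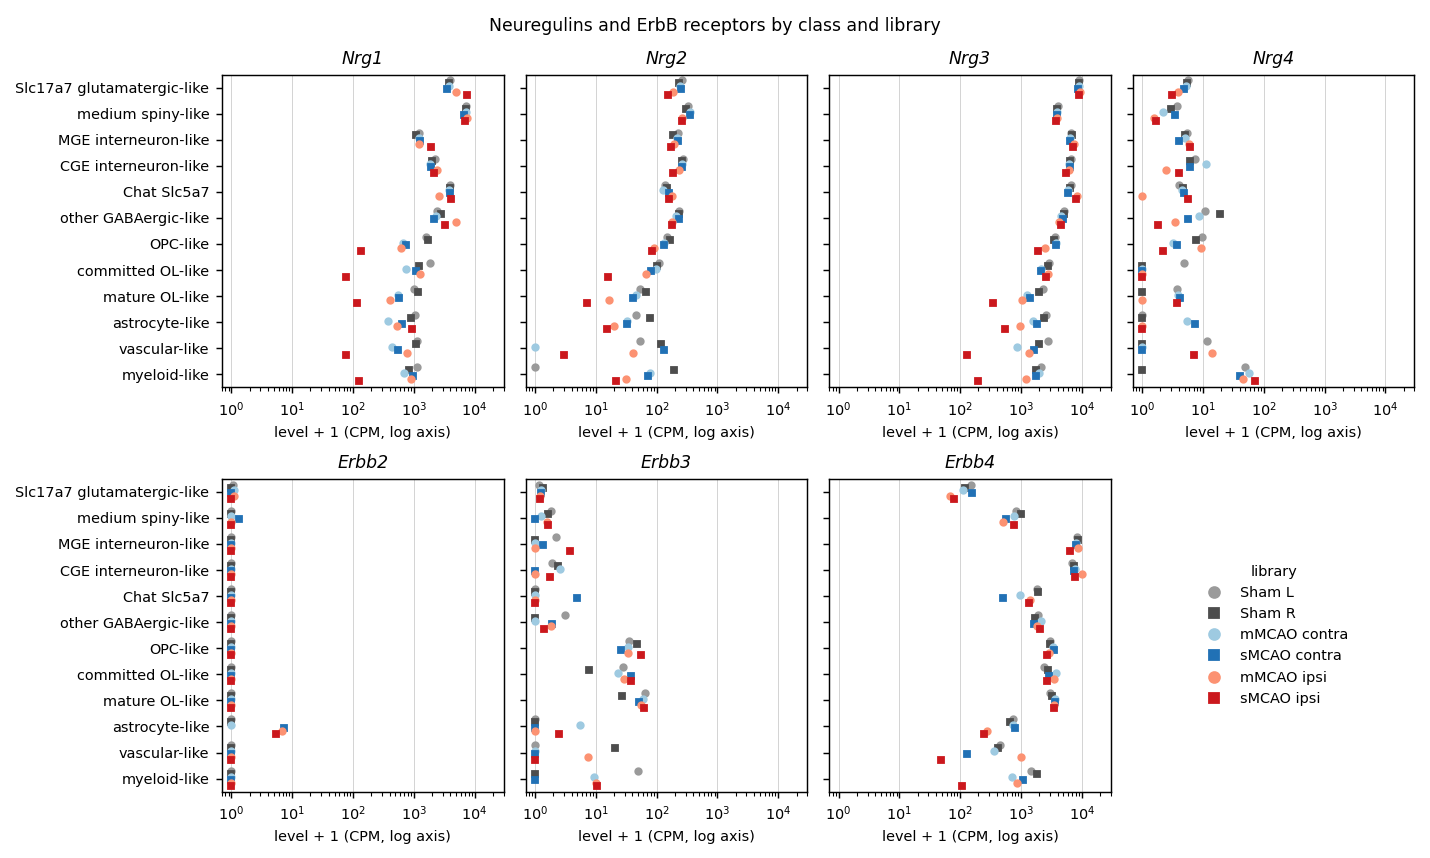
Level of each of the 7 genes (CPM + 1, log axis) in 12 classes, with 1 point per library. Neuronal classes hold the high levels of Nrg1, Nrg2 and Nrg3, with Nrg1 at 3524 to 7397 CPM in Slc17a7 glutamatergic-like nuclei, while in the glial classes these ligands spread over libraries, with sMCAO ipsi lowest in most of them. Erbb4 peaks in the MGE and CGE interneuron-like classes and stays between 2398 and 3697 CPM in the OPC-like and oligodendrocyte-like (OL) classes.

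Nrg1, the best studied neuregulin, was highest in the medium spiny-like nuclei, the GABAergic projection neurons of the striatum. Their levels were 7120, 7206, 7156, 6736, 7614 and 7053 CPM. mMCAO ipsi was the highest library by a small margin, sMCAO ipsi lay inside the range of the others, and no change was called. Slc17a7 glutamatergic-like nuclei, the cortical excitatory neurons, came next with 3928, 3814, 3767 and 3524 CPM in the Sham and contralateral libraries and 4917 and 7397 CPM in mMCAO ipsi and sMCAO ipsi. Both ipsilateral libraries were above all 4 others there. Chat Slc5a7 nuclei, which carry the genes of acetylcholine synthesis and choline uptake, held 2637 to 4021 CPM, and the other GABAergic-like nuclei held 2184 to 4913 CPM. CGE interneuron-like nuclei (1817 to 2381 CPM) were above MGE interneuron-like nuclei (1091 to 1927 CPM) in 6 of 6 libraries, by 0.67 ± 0.29 on the log2 scale (SD, n = 6).

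The order of the levels over the 11 classes with at least 20 nuclei in every library was tested between neighbours by an exact paired permutation test on log2(CPM + 5). The order was set by the means over the same libraries. The direction of each pair was thus not independent of the values tested. Of 70 neighbour pairs over the 7 genes, 16 had the higher class higher in all 6 libraries, and in no pair did the adjusted p pass 0.05, because the smallest p that 6 pairs allow is 0.03125 and the smallest adjusted value was 0.137. The step from medium spiny-like to Slc17a7 glutamatergic-like nuclei for Nrg1 (0.70 ± 0.39) held in 5 of 6 libraries, and that from Slc17a7 glutamatergic-like to Chat Slc5a7 nuclei (0.26 ± 0.49) in 3 of 6. The first of these differences was larger than its SD, with p = 0.0625 in the exact test, and the second was within its SD.

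Within the Slc17a7 glutamatergic-like class, the Nrg1 levels of the infarcted hemispheres parted by subclass. Cux2 Glis3 nuclei, which carry markers of the upper cortical layers, had 4468, 4493, 4298, 3828, 6265 and 13257 CPM. Layer 5-like nuclei had 3481, 3211, 3352, 3006, 3878 and 4924 CPM, and layer 6-like nuclei 4050, 3805, 3775, 3285, 4131 and 4695 CPM. In all 3 subclasses sMCAO ipsi was the highest library and mMCAO ipsi the second highest. The severe over the moderate ipsilateral library gave a ratio of 2.12 (95% Poisson interval 2.08 to 2.15, counting error only) in Cux2 Glis3 nuclei, 1.27 (1.23 to 1.31) in layer 5-like and 1.14 (1.11 to 1.17) in layer 6-like nuclei.

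The rise in Cux2 Glis3 nuclei had a broad and a narrow part. The median nucleus of at least 1000 UMIs went from 3338 to 4156 CPM in the Sham and contralateral libraries to 5426 CPM in mMCAO ipsi and 7467 CPM in sMCAO ipsi. Beyond this, single nuclei stood far above the rest. Nuclei in which Nrg1 made up at least 2% of all UMIs, a limit set after the values were seen, numbered 0 of 596, 0 of 444, 0 of 955 and 1 of 552 in the first 4 libraries, 16 of 833 in mMCAO ipsi (1.92%, 95% exact interval 1.10% to 3.10%) and 40 of 295 in sMCAO ipsi (13.6%, 9.87% to 18.0%). The highest of the latter reached 153944 CPM. Over the nuclei of at least 1000 UMIs, in sMCAO ipsi the top 10% of Cux2 Glis3 nuclei held 46.9% of the Nrg1 UMIs, against 23.5% to 28.3% in the other 5 libraries. Without the nuclei past the limit the level was 7344 CPM in sMCAO ipsi and 5923 CPM in mMCAO ipsi, still above the 3804 to 4493 CPM of the other libraries. The 40 nuclei had a median of 9583 UMIs, and all Cux2 Glis3 nuclei of that library one of 8584 UMIs, against 3251 to 5202 UMIs in the other libraries. The part of depth in the result was not tested. No layer 5-like or layer 6-like nucleus passed the limit in any library. In sMCAO ipsi this was 0 of 128 and 0 of 240 nuclei, for which the upper end of the 95% exact interval is 2.84% and 1.53%. In the whole Slc17a7 glutamatergic-like class 3 of 2579 nuclei of sMCAO contra, 26 of 3381 of mMCAO ipsi and 44 of 953 of sMCAO ipsi passed it. Some of these nuclei thus lay outside the 3 subclasses. In other neuronal classes the limit was passed by 0 to 4 medium spiny-like, 0 to 3 CGE interneuron-like, 0 to 2 other GABAergic-like and 0 to 1 MGE interneuron-like nuclei per library.

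**Figure D2:**
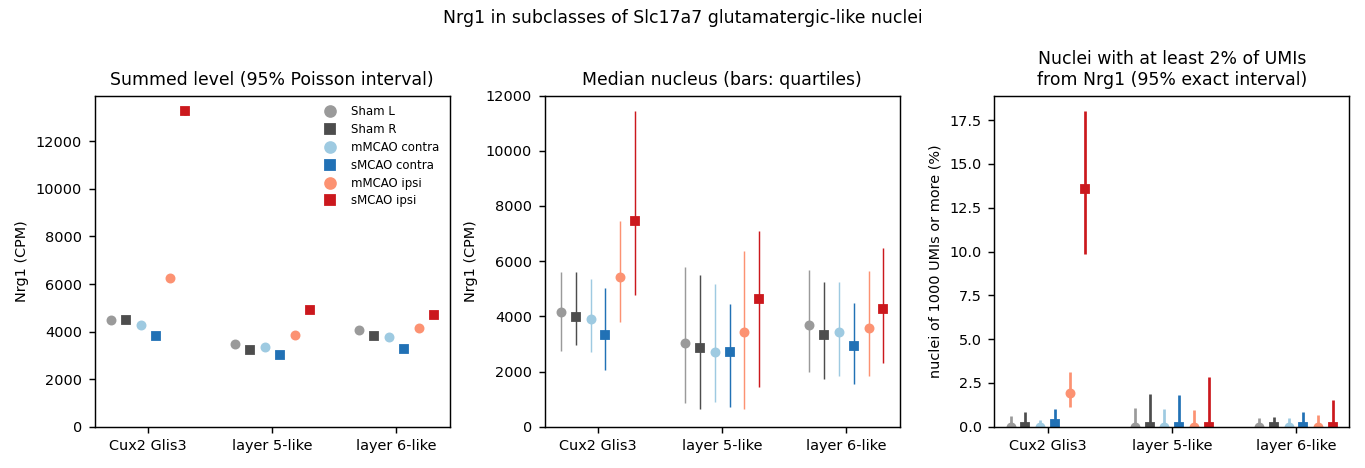
Nrg1 in 3 subclasses of Slc17a7 glutamatergic-like nuclei by library: summed level (CPM, bars are 95% Poisson intervals), median nucleus (CPM, bars are quartiles) and share of nuclei of 1000 UMIs or more with at least 2% of UMIs from Nrg1 (percent, bars are 95% exact intervals). In Cux2 Glis3 nuclei the severe ipsilateral library stands at 13257 CPM and 13.6%, and the layer 5-like and layer 6-like nuclei have no nucleus past the limit.

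High single nuclei also weighed on 3 other values of sMCAO ipsi, compared here over nuclei of at least 1000 UMIs. Slc17a6 nuclei, a small glutamatergic class, had 22889 CPM of Nrg1 in sMCAO ipsi against 2010 to 2860 CPM elsewhere, with 5 of 37 nuclei past the 2% limit, and 2075 CPM without them. The median Slc17a6 nucleus of sMCAO ipsi had 1913 CPM. In astrocyte-like nuclei of sMCAO ipsi 1 of 462 nuclei carried 48106 CPM, and the level fell from 921 to 413 CPM without it. In other GABAergic-like nuclei of sMCAO ipsi 1 nucleus carried 190229 CPM, and the level was 3257 CPM with it and 2957 CPM without it.

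Nrg3, a neuregulin made mainly in the nervous system, was even between libraries in most neuronal classes and varied more in most glial classes. Slc17a7 glutamatergic-like nuclei held 9024, 8958, 8870, 8625, 9408 and 9108 CPM, with both ipsilateral libraries slightly above the other 4. Layer 6-like nuclei were the highest subclass, at 10194 to 11328 CPM. Chat Slc5a7 nuclei (5947 to 8463 CPM), MGE interneuron-like (6362 to 7404 CPM) and CGE interneuron-like nuclei (5452 to 6579 CPM) followed, and the first 2 of these did not differ beyond their spread (0.01 ± 0.13 on the log2 scale, higher in 3 of 6 libraries). Medium spiny-like nuclei were the lowest neurons, at 3746 to 3992 CPM. Medium spiny-like nuclei were thus the highest class for Nrg1 and the lowest neuronal class tested for Nrg3.

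Nrg2, which is close to Nrg1 in its receptor use, was highest in medium spiny-like nuclei at 328, 302, 359, 356, 265 and 263 CPM, above CGE interneuron-like nuclei in 6 of 6 libraries by 0.35 ± 0.15. CGE interneuron-like nuclei had 275, 259, 259, 258, 234 and 183 CPM and Slc17a7 glutamatergic-like nuclei 264, 237, 241, 254, 186 and 156 CPM. In each of these 3 classes both ipsilateral libraries were below the other 4.

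Nrg4, known as a secreted factor of fat tissue and a ligand of Erbb4, was rare in neurons and denser in myeloid-like and ependymal-like nuclei. Myeloid-like nuclei held 204 of its UMIs, at 47.6, 0, 55.3, 39.4, 43.9 and 70.0 CPM, and 5.66% of them had a UMI. Sham R had 22 myeloid-like nuclei and Sham L 17, too few to place the 0 apart from the other libraries. Over all libraries this was 58.2 CPM. Ependymal-like nuclei were close to that, at 55.7 CPM from 25 UMIs, with a UMI in 5.92% of them. In Slc17a7 glutamatergic-like nuclei Nrg4 gave 330 UMIs, or 3.82 CPM over all libraries. The myeloid-like level was 31.4 times what free neuronal RNA would carry, as the median of 6 libraries that ranged from 0 to 238, and 5.44% of myeloid-like nuclei had a UMI after thinning to 1000 UMIs, against 0.366% of Slc17a7 glutamatergic-like nuclei.

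Erbb4, the receptor that neuregulins of every kind bind, was highest in the interneurons. MGE interneuron-like nuclei had 8189, 8649, 8115, 7888, 8709 and 6428 CPM and CGE interneuron-like nuclei 6933, 7353, 7719, 7410, 10004 and 7804 CPM. These neighbours did not differ beyond their spread (0.03 ± 0.22, higher in 4 of 6 libraries). Within the MGE class the Sst-like nuclei, 185 in all and 11 to 63 per library, were lower, at 1284, 3300, 2262, 1138, 1634 and 1302 CPM, while MGE interneuron-like nuclei without Sst markers had 6876 to 8885 CPM. The Sst-like nuclei were below them in 6 of 6 libraries, a difference that was not tested.

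After the interneurons came the oligodendrocyte lineage. Mature oligodendrocyte-like nuclei had 2967, 3207, 3682, 3591, 3469 and 3460 CPM of Erbb4, OPC-like nuclei (oligodendrocyte precursor cells) 2967, 2973, 3421, 3540, 2910 and 2676 CPM, and committed oligodendrocyte-like nuclei 2398, 2785, 3697, 2912, 3459 and 2721 CPM. CGE interneuron-like nuclei stood 1.20 ± 0.17 above the mature class on the log2 scale, in 6 of 6 libraries. The OPC-like and committed classes did not differ beyond their spread (0.05 ± 0.22). Other GABAergic-like nuclei followed at 1646 to 2127 CPM and Chat Slc5a7 nuclei at 512 to 1877 CPM.

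Medium spiny-like nuclei held 503 to 1015 CPM of Erbb4, with a gap between the kinds that could be gated. Of 5460 such nuclei, 311 (31 to 95 per library) were gated as D1 and 2193 (116 to 525) as D2, and the rest as neither. D1 medium spiny-like nuclei had 865, 1253, 1012, 913, 870 and 1688 CPM, and D2 medium spiny-like nuclei, which were gated on Drd2, Adora2a, Penk and Gpr6, had 293, 437, 226, 227, 143 and 117 CPM. The D1 nuclei were higher in 6 of 6 libraries. Slc17a7 glutamatergic-like nuclei were the lowest tested class by mean log level, at 150, 120, 111, 155, 66.3 and 77.7 CPM, with both ipsilateral libraries below the other 4.

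Erbb3, the receptor of the myelinating lineage with weak kinase activity, had 313 of its UMIs in mature oligodendrocyte-like nuclei, at 63.3, 26.1, 57.9, 50.9, 54.4 and 60.6 CPM. OPC-like nuclei held 104 UMIs, at 34.3, 47.1, 32.4, 24.9, 32.8 and 55.5 CPM, and committed oligodendrocyte-like nuclei 26 UMIs, or 25.7 CPM over all libraries. Myeloid-like nuclei gave 32 UMIs, or 9.12 CPM. Slc17a7 glutamatergic-like nuclei gave 21 UMIs among 86353115, or 0.243 CPM. In the mature class 6.15% of nuclei had a UMI of Erbb3 after thinning to 1000 UMIs, and in the astrocyte-like class 0.219%. Erbb2, the partner receptor without a ligand, gave 0 UMIs in the OPC-like, committed and mature oligodendrocyte-like, myeloid-like and interneuron-like classes. With a limit of 3 counts, this allows up to 2.02 to 13.1 CPM per library in mature oligodendrocyte-like nuclei and 3.70 to 20.2 CPM in OPC-like nuclei, so that Erbb2 was not detectable at this depth. Its 27 UMIs included 10 in astrocyte-like, 5 in fibroblast-like and 5 in Slc17a7 glutamatergic-like nuclei. The 10 in astrocyte-like nuclei fell in sMCAO contra, mMCAO ipsi and sMCAO ipsi, at 6.33, 5.77 and 4.51 CPM, where 1 UMI weighs much.

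Differences between groups were tested in each of the 11 classes with edgeR's quasi-likelihood F test on the summed UMIs, over all genes that passed a filter on low counts, and a gene was called where its Benjamini-Hochberg adjusted p was below 0.05 with a log2 fold change of 0.6 or more in size. Of 77 pairs of member and class, 48 passed the filter, which were Nrg1, Nrg3 and Erbb4 in 11 classes, Nrg2 in 10, Nrg4 in 3 and Erbb3 in 2. Erbb2 passed in none. In MCAO ipsi against Sham 12 pairs were called, 1 higher and 11 lower, where 4.04% of all gene and class pairs tested were called. In MCAO ipsi against MCAO contra 6 were called, 2 higher and 4 lower (background 2.06%), and in MCAO contra against Sham 1, lower (background 0.0915%). At an unadjusted p under 0.05 the counts were 22, 24 and 7, and DESeq2 called 8, 5 and 1. The first 2 comparisons share the MCAO ipsi libraries, and MCAO contra against Sham shares a group with each of them.

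**Figure D3:**
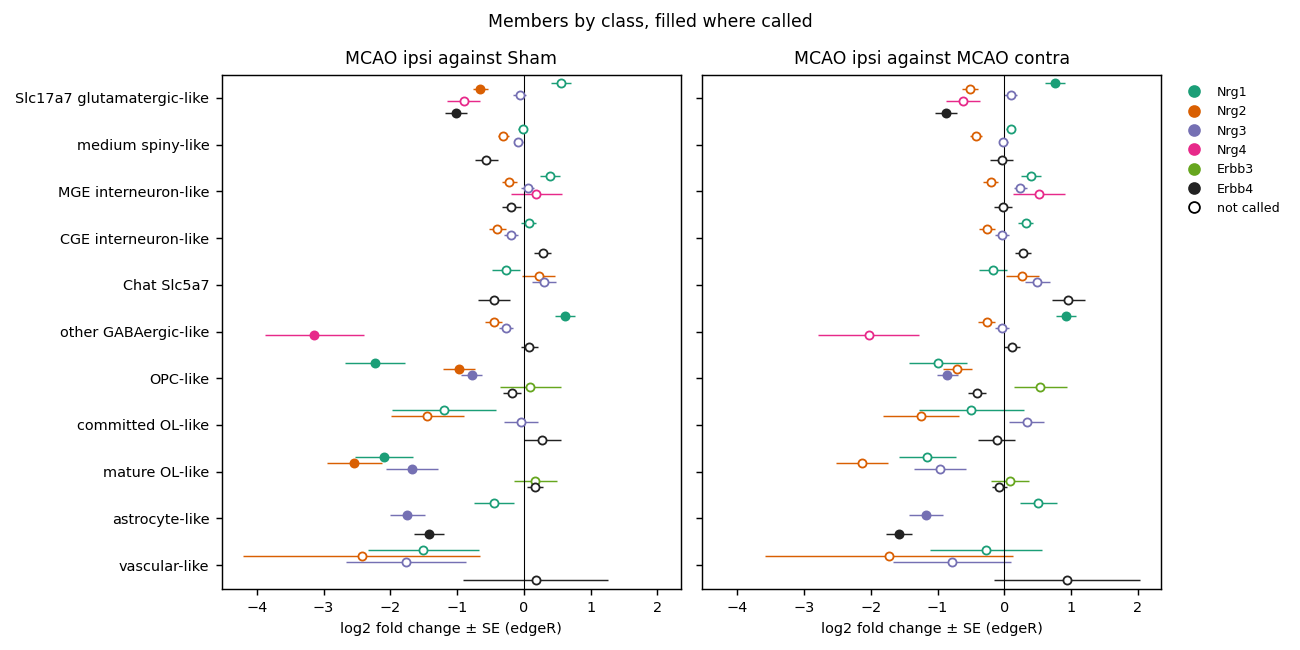
Log2 fold change with its SE (edgeR) of each tested member in 11 classes, MCAO ipsi against Sham and against MCAO contra, with filled points where called. No point of the receptors Erbb4 and Erbb3 is filled in the oligodendrocyte lineage, where they lie between -0.41 and 0.54, while Nrg1, Nrg2 and Nrg3 lie to the left in OPC-like and mature oligodendrocyte-like (OL) nuclei.

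In Slc17a7 glutamatergic-like nuclei Erbb4 fell in MCAO ipsi, by a log2 fold change of -1.02 ± 0.16 against Sham (adjusted p = 0.0116, 5.98% of 14338 genes called) and of -0.87 ± 0.16 against MCAO contra (adjusted p = 0.0212, 3.42% called). Nrg2 fell against Sham (-0.65 ± 0.12, adjusted p = 0.0155) and Nrg1 rose against MCAO contra (0.76 ± 0.15, adjusted p = 0.0281). Nrg1 against Sham, at 0.55 ± 0.15, had an adjusted p of 0.0533. Nrg3 was at -0.06 ± 0.10 against Sham. The Nrg1 result rested on sMCAO ipsi for its size, since without that library its log2 fold change was 0.49, under the limit, and its call was also lost without sMCAO contra (adjusted p = 0.217), mMCAO contra (0.187), Sham L (0.0923) and Sham R (0.0900), and with rat pool as a block (0.0562). Erbb4 lost its call against Sham without Sham L (adjusted p = 0.180) and Sham R (0.0632), and against MCAO contra without sMCAO contra (0.146), mMCAO contra (0.0773), Sham L (0.0573) and Sham R (0.0517). Nrg2 lost its call without Sham L (0.208), Sham R (0.0780) and sMCAO ipsi (log2 fold change -0.50).

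By subclass, Erbb4 fell in layer 6-like nuclei, where the levels went from 102, 119, 84.0 and 117 CPM to 37.9 and 27.1 CPM. The log2 fold change was -1.81 ± 0.18 against Sham (adjusted p = 1.02e-04, 3.44% called) and -1.55 ± 0.19 against MCAO contra (adjusted p = 4.35e-04, 3.25% called). In Cux2 Glis3 nuclei the levels went from 112, 76.7, 98.6 and 110 CPM to 44.4 and 21.5 CPM, with -1.57 ± 0.29 (adjusted p = 0.0193, 3.65% called) and -1.58 ± 0.28 (adjusted p = 0.0219, 2.19% called). In layer 5-like nuclei the libraries overlapped, at 142, 98.5, 77.5, 196, 75.8 and 142 CPM, and the change of -0.31 ± 0.34 was not called. A difference between the subclasses was not tested. Nrg2 fell against Sham in Cux2 Glis3 nuclei (-0.73 ± 0.16, adjusted p = 0.0333) and layer 6-like nuclei (-0.60 ± 0.13, adjusted p = 0.0167), and Nrg1 rose against MCAO contra in Cux2 Glis3 nuclei (1.26 ± 0.26, adjusted p = 0.0376), with 1.01 ± 0.26 and an adjusted p of 0.0596 against Sham.

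Of these subclass calls, those of Erbb4 in layer 6-like nuclei remained without each of the 6 libraries and under every other setting tried. Subtraction of free RNA was not among these settings. Over all nuclei Erbb4 stood at 1664 to 1961 CPM, and the level that free RNA would carry into neuronal classes was not estimated. In Cux2 Glis3 nuclei Erbb4 lost its call against Sham without Sham L (adjusted p = 0.341), Sham R (0.147) and with a stricter gate (0.0521), and against MCAO contra without each of the 4 Sham and contralateral libraries (0.100 to 0.155) and with the stricter gate (0.0644). Nrg1 there lost its call without the same 4 libraries (0.156 to 0.283), by DESeq2 (0.0667) and with rat pool as a block (0.0900). Nrg2 in Cux2 Glis3 nuclei kept its call without mMCAO ipsi and lost it without each of the other 5 libraries, where the adjusted p was 0.0695 to 0.374 and, without sMCAO ipsi, the log2 fold change was -0.55. It was also lost with the stricter gate (0.0544) and with only the 2 groups compared (0.0722). Nrg2 in layer 6-like nuclei lost its call without Sham L (0.348), Sham R (0.0608) and sMCAO ipsi (log2 fold change -0.43), with the stricter gate (0.128) and with doublet-like nuclei kept, where it was at -0.59.

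Some markers listed for other neurons moved in this class too, and whether their RNA came from other neurons was not tested. The 3 MGE interneuron markers in the files summed to 33.9 to 41.4 CPM in Slc17a7 glutamatergic-like nuclei and the 5 CGE interneuron markers to 58.4 to 79.3 CPM, with the ipsilateral libraries inside the range of the others or above it. The 3 GABAergic markers summed to 7.98, 8.51, 7.70 and 9.56 CPM in the Sham and contralateral libraries and to 5.08 and 5.31 CPM in mMCAO ipsi and sMCAO ipsi, and the 7 medium spiny markers to 963 to 1443 CPM and to 524 and 466 CPM. In Cux2 Glis3 nuclei the MGE markers summed to 24.3, 20.5, 18.1, 17.5, 21.7 and 5.37 CPM and the medium spiny markers to 1343, 1273, 786, 1038, 399 and 391 CPM, lowest in the ipsilateral libraries for the latter and in sMCAO ipsi for the former. In layer 6-like nuclei the MGE markers (49.3 to 81.1 CPM) did not separate the groups, while the GABAergic markers were at 6.19, 8.73, 6.78, 7.22, 6.38 and 2.33 CPM and the medium spiny markers at 1262, 1204, 932, 1073, 553 and 442 CPM. Their part in the fall of Erbb4 was not tested. Nuclei that held a UMI of an interneuron or GABAergic marker were then left out, a step chosen after seeing the data. In sMCAO ipsi this kept 537 of 953 nuclei of the class and 96 of 240 layer 6-like nuclei. Nuclei without a marker UMI can still hold free RNA, so that the step could not remove all of it. In the nuclei kept, Erbb4 was at -1.11 against Sham (adjusted p = 0.0108), and the 4 calls of the class remained. Of the 7 calls in its subclasses 6 remained, and Nrg2 in layer 6-like nuclei was at -0.52 (adjusted p = 0.0536).

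Among the GABAergic classes, other GABAergic-like nuclei had Nrg1 at 2380, 2832, 2286, 2184, 4913 and 3257 CPM, with both ipsilateral libraries above the other 4. The median nucleus of at least 1000 UMIs had 1269, 2376, 1077, 1039, 3841 and 1290 CPM. By that measure only mMCAO ipsi stood above the Sham and contralateral libraries, and sMCAO ipsi lay inside their range. The log2 fold change was 0.62 ± 0.15 against Sham (adjusted p = 0.0217, 3.6% called) and 0.93 ± 0.15 against MCAO contra (adjusted p = 0.00124, 1.96% called). Without mMCAO ipsi these were 0.25 and 0.55, under the limit, and the call against Sham was also lost without Sham L (adjusted p = 0.359) and Sham R (0.0757), with a looser gate (0.39, adjusted p = 0.218), with a stricter one (adjusted p = 0.0598), with doublet-like nuclei kept (0.55, under the limit) and with only the 2 groups compared (adjusted p = 0.0712). DESeq2 called neither (adjusted p = 0.430 and 0.0534). Nrg4 fell there against Sham (-3.14 ± 0.74, adjusted p = 0.0172) on 40 UMIs in all, at 9.73, 17.7, 7.60, 4.61, 2.5 and 0.848 CPM. DESeq2 gave no adjusted p for it, and the call was lost with the looser gate (adjusted p = 0.0859) and without Sham L (adjusted p = 0.111), Sham R (0.212) or sMCAO ipsi (0.158).

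In D2 medium spiny-like nuclei Erbb4 fell in MCAO ipsi against Sham (-1.49 ± 0.16, adjusted p = 2.56e-05, 1.66% called) and against MCAO contra (-0.77 ± 0.17, adjusted p = 0.0202, 0.946% called), and in MCAO contra against Sham (-0.71 ± 0.14, adjusted p = 0.0360, 0.115% called). Each group of D2 libraries lay below the one before it without overlap. The call against Sham remained without each of the 6 libraries, and free RNA was not subtracted in this subclass. That against MCAO contra was lost without sMCAO contra (adjusted p = 0.0703) and sMCAO ipsi (0.0562), by DESeq2 (0.0613), with doublet-like nuclei kept (-0.13, adjusted p = 0.815), with the stricter gate (-0.30, adjusted p = 0.646) and with nuclei holding an interneuron marker UMI left out (-0.81, adjusted p = 0.0759). That of MCAO contra against Sham was lost without Sham R (-0.44, adjusted p = 0.604), mMCAO contra (0.105) and sMCAO contra (0.182), by DESeq2 (0.283) and with both other gates (0.145 and 0.0953). In D2 nuclei the MGE interneuron markers summed to 47.4, 55.8, 30.7, 64.6, 22.2 and 6.86 CPM and the CGE markers to 149 to 242 CPM, so that the former were lowest in the ipsilateral libraries, and their part in the fall was not tested. D1 medium spiny-like nuclei had 0.34 ± 0.25 against Sham, which was not called. In Chat Slc5a7 nuclei Erbb4 fell in MCAO contra against Sham (-1.41 ± 0.24, adjusted p = 0.0282, 0.0614% called), from 1818 and 1877 to 948 and 512 CPM, on 20 to 72 nuclei per library. That call was lost without sMCAO contra (adjusted p = 0.176), Sham L (0.264) and Sham R (0.195), and with the looser gate (0.531).

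Erbb4 in the interneurons was not called in any comparison. MGE interneuron-like nuclei had -0.19 ± 0.14 and CGE interneuron-like nuclei 0.28 ± 0.12 in MCAO ipsi against Sham. Nrg3 in the 2 classes had 0.06 ± 0.10 and -0.19 ± 0.11, and Nrg1 0.39 ± 0.15 and 0.07 ± 0.11. Medium spiny-like nuclei had -0.01 ± 0.07 for Nrg1 and -0.08 ± 0.07 for Nrg3.

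In the oligodendrocyte lineage the calls fell on ligands, and none fell on a receptor. In OPC-like nuclei Nrg1 fell in MCAO ipsi against Sham (-2.23 ± 0.45, adjusted p = 0.00735), as did Nrg2 (-0.97 ± 0.24, adjusted p = 0.0199) and Nrg3 (-0.78 ± 0.16, adjusted p = 0.00738), where 10.9% of 7395 genes were called. Nrg3 also fell against MCAO contra (-0.85 ± 0.16, adjusted p = 0.00900, 5.68% called). Erbb4 was at -0.17 ± 0.14 and Erbb3 at 0.10 ± 0.45 against Sham, and at -0.41 ± 0.14 (adjusted p = 0.104) and 0.54 ± 0.40 (adjusted p = 0.518) against MCAO contra. In mature oligodendrocyte-like nuclei Nrg1 (-2.10 ± 0.44, adjusted p = 0.0306), Nrg2 (-2.54 ± 0.42, adjusted p = 0.0170) and Nrg3 (-1.67 ± 0.39, adjusted p = 0.0430) fell against Sham, where 6.31% of 8973 genes were called, while Erbb4 was at 0.17 ± 0.12 and Erbb3 at 0.17 ± 0.33. In astrocyte-like nuclei Nrg3 fell against Sham (-1.75 ± 0.26, adjusted p = 8.45e-04, 10.9% of 4538 genes called) and against MCAO contra (-1.17 ± 0.25, adjusted p = 0.00477, 12.7% called), and Erbb4 did so too (-1.42 ± 0.23, adjusted p = 0.00126, and -1.58 ± 0.19, adjusted p = 1.15e-04). In committed oligodendrocyte-like nuclei, where edgeR called 0 of 3360 genes against Sham, 583 had an unadjusted p under 0.05 and DESeq2 called 12, Erbb4 was at 0.28 ± 0.28 and Nrg1 at -1.19 ± 0.78.

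Leaving out single libraries or changing the tool ended many of these calls. The 6 calls against Sham in OPC-like and mature oligodendrocyte-like nuclei were all lost without Sham L (adjusted p 0.128 to 0.281) and without Sham R (0.0931 to 0.221), and those of Nrg1 and Nrg3 in the mature class also without mMCAO contra (0.0586 and 0.0750) or sMCAO contra (0.0598 and 0.0776). Nrg3 in OPC-like nuclei was at -0.60 without sMCAO ipsi, just under the limit, and against MCAO contra it lost its call without mMCAO contra (adjusted p = 0.107) or sMCAO contra (0.0678), and with rat pool as a block (0.128). DESeq2 called neither change of Nrg3 in OPC-like nuclei (adjusted p = 0.0506 and 0.0761) nor that of Nrg2 (0.166), and the stricter gate ended those of Nrg2 (0.0654) and of Nrg3 against MCAO contra (0.0525). With the looser gate Nrg1 and Nrg3 in the mature class lost theirs (0.0765 and 0.0763). In astrocyte-like nuclei the calls against Sham were lost without Sham L (adjusted p = 0.161 for Erbb4 and 0.0990 for Nrg3), and Nrg3 against MCAO contra without mMCAO contra (0.0733) or sMCAO contra (0.100). With doublet-like nuclei kept, Erbb4 against Sham (-1.06, adjusted p = 0.0691) and Nrg3 against MCAO contra (-0.70, adjusted p = 0.102) were not called. Erbb4 in astrocyte-like nuclei against MCAO contra kept its call without each of the 6 libraries.

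Free neuronal RNA was measured in the same nuclei with a panel of 10 neuronal genes that the gate did not use (Rbfox3, Snap25, Syt1, Kcnip4, Kcnq5, Grin2a, Grin1, Ryr2, Camk2a and Lrrc7). The level of the panel in a glial class was divided by its level over all nuclei of the library, and this share times the level of a member over all nuclei gave the level that free RNA would carry along. In mature oligodendrocyte-like nuclei the share was 32.4%, 32.3%, 17.5%, 20.5%, 13.1% and 5.34%, in astrocyte-like nuclei 30.6%, 25.3%, 10.7%, 20%, 8.41% and 4.57%, and in myeloid-like nuclei 41.2%, 40.3%, 29.5%, 31.3%, 18.5% and 3.79%. It was highest in the Sham libraries and lowest in sMCAO ipsi in each of these classes. In OPC-like nuclei it was 41.7%, 42.2%, 25.8%, 35.0%, 23.7% and 25.7%. There the panel gene Kcnq5 alone gave the highest share in every library, at 50.5% to 163%. In sMCAO ipsi it gave 163% and Camk2a 1.59%, so that the panel did not move as 1 source in that library. The panel genes also differed in mature oligodendrocyte-like nuclei, where Lrrc7 gave the highest share in every library. In sMCAO ipsi Lrrc7 gave 21.9% and Rbfox3 1.34% in that class. With 1 panel gene left out, the share there ran from 3.69% to 7.09%. Median UMIs per nucleus were highest in sMCAO ipsi in the OPC-like, mature oligodendrocyte-like and astrocyte-like classes. In mature oligodendrocyte-like nuclei they were 681, 642.5, 762, 713, 707 and 1122, with mMCAO ipsi inside the range of the Sham and contralateral libraries. In astrocyte-like nuclei they were 769, 642, 1031, 891, 1378.5 and 2344.

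In mature oligodendrocyte-like nuclei Nrg1 and Nrg2 were at or below the level that free RNA would carry in most libraries. Nrg3 was near that level, below it in the Sham libraries and slightly above it in the others. Nrg3 stood at 2333, 1984, 1247, 1394, 1038 and 344 CPM where 2395, 2364, 1215, 1381, 990 and 296 CPM would be carried, a ratio of 0.839 to 1.16 with the interval above 1 in 1 of 6 libraries. For Nrg1 the ratio was 0.520 to 1.01, with the interval below 1 in 4 of 6, so that the carried level was too high for Nrg1 there. For Nrg2 the ratio was 0.634 to 1.09. The intervals of these ratios do not cover the differences between the panel genes. In sMCAO ipsi the share behind the carried level ran from 3.69% to 7.09% with 1 panel gene left out. Per 1000 panel UMIs, Nrg1 had 126, 148, 139, 132, 139 and 138 UMIs in this class, with no low value in the infarcted hemispheres. The panel moved with the calls of these 3 ligands, and its part in them was not tested beyond these ratios. With free neuronal RNA subtracted, Nrg1 and Nrg2 in this class could no longer be tested, and Nrg3 turned to 8.34 on sums near 0.

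**Figure D4:**
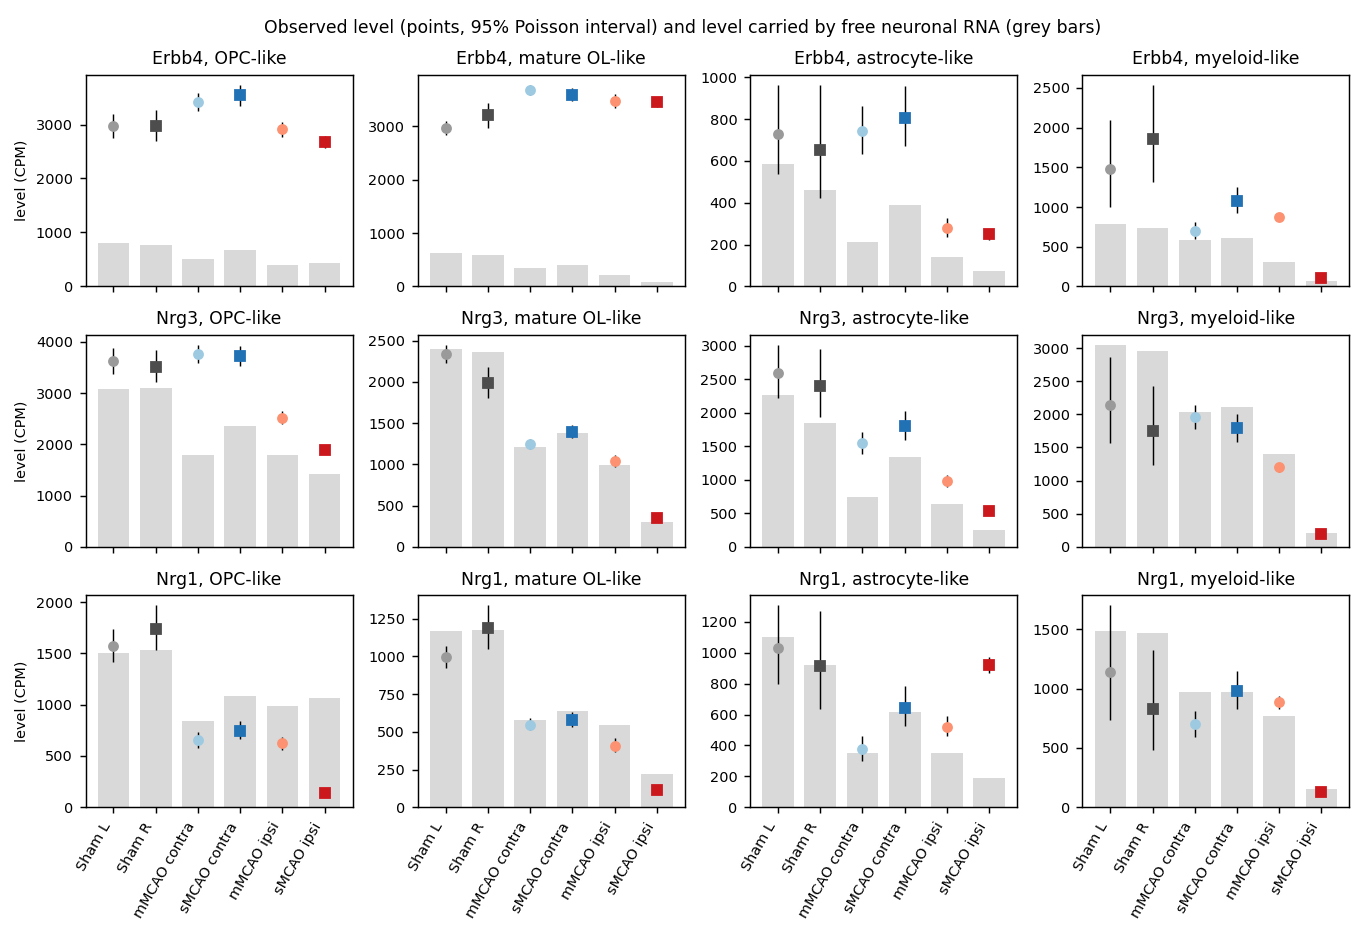
Level of Erbb4, Nrg3 and Nrg1 (CPM, points with 95% Poisson intervals) and the level that free neuronal RNA would carry (grey bars) in 4 glial classes by library. Erbb4 in OPC-like and mature oligodendrocyte-like (OL) nuclei is 3.70 to 38.9 times the grey bar, and Nrg3 in mature OL-like nuclei 0.839 to 1.16 times. In sMCAO ipsi the bar is lowest in the mature, astrocyte-like and myeloid-like classes. The points are lowest there too, apart from Erbb4 in mature OL-like nuclei, at 3460 CPM, and Nrg1 in astrocyte-like nuclei.

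The receptors of the oligodendrocyte lineage lay far above that level. Erbb4 was 4.77, 5.46, 10.7, 9.05, 15.9 and 38.9 times the carried level in mature oligodendrocyte-like nuclei and 3.70 to 7.38 times in OPC-like nuclei, with the interval above 1 in 6 of 6 libraries of both. Erbb3 was 71.9 to 166 times the carried level in the mature class and 26.0 to 99.2 times in OPC-like nuclei. In myeloid-like nuclei Erbb3, on 32 UMIs in all, had a median ratio of 12.6 with a range of 0 to 43.0. Its interval was above 1 in 4 of 6 libraries. After thinning to 1000 UMIs, 85.6% to 93.2% of mature oligodendrocyte-like and 82.1% to 92.8% of OPC-like nuclei had a UMI of Erbb4, against 66.7%, 75%, 40.3%, 47.4%, 40.5% and 5.42% of myeloid-like nuclei, of which 4 to 849 per library reached that depth. Without thinning the shares were 81.7% to 90.1%, 85.4% to 96.9% and 6.99% to 64.7%. In sMCAO ipsi the myeloid-like share was low and that of the mature class was 91.4%.

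OPC-like nuclei also held Nrg3 above the carried level, at 1.17, 1.14, 2.11, 1.58, 1.40 and 1.33 times, with the interval above 1 in 6 of 6 libraries, and Nrg2 at 1.41 to 2.38 times in 5 of 6. With the panel gene left out that lowered it most, the median ratio of Nrg3 was 0.945. Leaving out a gene could also raise the ratio, since the share in sMCAO ipsi then ran from 9.59% to 44.2%. Nrg1 in OPC-like nuclei was at 1.05 and 1.14 times in the Sham libraries and at 0.127 in sMCAO ipsi. In that library the panel behind the carried level was most uneven. With free neuronal RNA subtracted, the fall of Nrg3 in OPC-like nuclei against Sham was -0.08 (adjusted p = 0.920) and that of Nrg2 -0.54 (adjusted p = 0.551). The call of Nrg3 against MCAO contra remained, with the same uneven panel. Nrg1 remained called, but the subtraction could not decide this. Nrg1 lay below the carried level in 4 of 6 libraries, where the subtraction left no UMIs, and only slightly above it in the Sham libraries. In committed oligodendrocyte-like nuclei of sMCAO ipsi Nrg3 kept 2586 CPM where 467 CPM would be carried, a ratio of 5.54 (4.97 to 6.15), on 52 nuclei, and in the other 5 libraries it was 0.872 to 1.46 times.

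In astrocyte-like nuclei Erbb4 was at 1.24, 1.42, 3.52, 2.08, 1.99 and 3.26 times the carried level, with the interval above 1 in the 4 libraries other than Sham. Its levels were 728, 653, 741 and 804 CPM in the Sham and contralateral libraries and 279 and 248 CPM in the ipsilateral ones, without overlap. With free neuronal RNA subtracted the change against Sham was -0.23 (adjusted p = 0.826), whereas the call against MCAO contra remained. After thinning to 1000 UMIs, 17.0% and 16.5% of astrocyte-like nuclei of mMCAO ipsi and sMCAO ipsi had a UMI of Erbb4, beside 40.5% and 5.42% of myeloid-like nuclei. Nrg3 was at 1.15 to 2.13 times the carried level, with the interval above 1 in 5 of 6 libraries. With free neuronal RNA subtracted, its call against Sham was lost as well, and that against MCAO contra remained. Myeloid-like nuclei, a class not known for this receptor, held Erbb4 at 1.21 to 2.84 times the carried level. The astrocyte-like ratios of Erbb4 in mMCAO contra (3.52) and sMCAO ipsi (3.26) lay above that range, and those of the other libraries inside it. For Nrg3 the ratio was 0.594 to 0.957 in myeloid-like and 0.788 to 0.971 in vascular-like nuclei.

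Of 64 other genes of the pathway, listed with earlier results of these data known, 63 were found and gave 504 tested pairs with a class. In MCAO ipsi against Sham 13 pairs were higher and 8 lower, which is 4.17% beside 4.04% of all pairs tested, with a median log2 fold change of 0.05 where the class medians over all genes were 0.01 to 0.04. Against MCAO contra 5 were higher and 3 lower (1.59% beside 2.06%), and in MCAO contra against Sham edgeR called 0 of the 504, where 39 had an unadjusted p under 0.05 and DESeq2 called 1. The calls rested on few libraries: of 19 named below in MCAO ipsi against Sham, nearly all were lost without Sham L and without Sham R. By DESeq2 7 remained. With free neuronal RNA subtracted 10 remained, which include those in neuronal classes, where nothing was subtracted.

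Among the other ErbB ligands and Egfr, 1 of 54 pairs was higher and 5 were lower against Sham. Egfr, the receptor of EGF, fell in OPC-like nuclei from 55.7 and 67.3 CPM in Sham to 9.83 and 7.40 CPM in MCAO ipsi (-2.88 ± 0.50, adjusted p = 0.00391) and in MGE interneuron-like nuclei (-0.61 ± 0.12, adjusted p = 0.0446). Hbegf, a heparin-binding ligand of Egfr and Erbb4, had 0 UMIs in the astrocyte-like nuclei of both Sham libraries, 1 in each contralateral library, and 32 and 205 UMIs, or 61.5 and 154 CPM, in mMCAO ipsi and sMCAO ipsi (adjusted p = 0.0250). Tmeff2, a membrane protein with an EGF-like domain, fell in astrocyte-like (-1.97 ± 0.35, adjusted p = 0.00214) and OPC-like nuclei (-0.62 ± 0.16, adjusted p = 0.0245), and Tgfa, a ligand of Egfr, in Slc17a7 glutamatergic-like nuclei (-0.95 ± 0.23, adjusted p = 0.0372).

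Of the proteases 3 of 57 pairs were higher and 1 lower. Adam19, which can cut neuregulins, rose in OPC-like nuclei from 25.7 and 33.6 CPM to 98.3 and 197 CPM (2.28 ± 0.48, adjusted p = 0.00874), with the contralateral libraries at 34.5 and 55.2 CPM, and in MGE interneuron-like nuclei (0.66 ± 0.13, adjusted p = 0.0450). Adam10 rose in mature oligodendrocyte-like nuclei (0.74 ± 0.18, adjusted p = 0.0471). Bace1 fell in CGE interneuron-like nuclei from 28.5 and 27.3 CPM to 13.3 and 10.6 CPM (-1.27 ± 0.27, adjusted p = 0.0272).

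Of the adaptors and kinases 6 of 288 pairs were higher and 1 lower. Shc3, an adaptor that couples receptor kinases to Ras, rose in OPC-like (0.94 ± 0.26, adjusted p = 0.0307) and astrocyte-like nuclei (1.55 ± 0.36, adjusted p = 0.0121) and fell in medium spiny-like nuclei (-0.85 ± 0.21, adjusted p = 0.0375). Shc4, of the same adaptor family, rose in OPC-like nuclei (1.03 ± 0.31, adjusted p = 0.0469) and in astrocyte-like nuclei, where it had 0 UMIs in both Sham libraries, 1 and 2 in the contralateral ones, and 38 and 91 UMIs in mMCAO ipsi and sMCAO ipsi (adjusted p = 0.0292). Of the regulators 3 of 105 pairs were higher and 1 lower. Erbin, a scaffold protein that binds Erbb2, rose in mature oligodendrocyte-like (1.02 ± 0.20, adjusted p = 0.0250) and astrocyte-like nuclei (1.29 ± 0.34, adjusted p = 0.0240), Yap1 rose in Slc17a7 glutamatergic-like nuclei from 0.791 and 0.886 CPM to 2.26 and 5.31 CPM (adjusted p = 0.0317), and Dlg4, the postsynaptic scaffold that binds Erbb4, fell in them (-0.70 ± 0.08, adjusted p = 0.00492).

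The genes whose levels were most like each member were found by Pearson correlation over 90 sums of class and library in 15 classes, among 15290 genes, as a description of sums that share libraries and depth. For Nrg1 they were Erc2 (r = 0.820), Kctd16 (0.810) and Tenm4 (0.806), for Nrg2 Me3 (0.911), Pacsin1 (0.894) and Camk2b (0.890), and for Nrg3 Fam155a (0.941), Syt1 (0.934) and Lrfn5 (0.926). For Erbb4 they were Kcnip1 (0.718), Grik2 (0.713) and Grik1 (0.680), and for Erbb3 the oligodendrocyte genes Ninj2 (0.893), Fa2h (0.852) and Sox10 (0.850). The sparse Nrg4 was nearest to Dtx4 (0.684), Pi16 (0.644) and Cep131 (0.601). For Erbb2, with 27 UMIs in all, no gene is named.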

How the data were processed

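Nuclei had been isolated from rat brain hemispheres and sequenced with the 10x 5′ kit, 1 pooled library per hemisphere and group. The authors deposited raw UMI counts per gene and nucleus, made with Cell Ranger 7.0.0 on mRatBN7.2 with intronic reads included, per the submitters' processing notes and the study's methods. Their correction for free RNA, doublet removal and tests over nuclei are not part of the deposited counts. The libraries held 33012945 to 52513380 UMIs, and all intervals and limits (95% exact or Poisson, 3 counts for a 0) cover counting error only.

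Nuclei were kept by the study's limits of 500 UMIs or more, 250 to 5000 genes and a mitochondrial share of up to 5%. In each library the 5% that most resembled simulated doublets were then removed. Cell types were not taken from an annotation. Nuclei entered 1 of 15 classes when their 83 marker genes, none of them a member, gave at least 2 UMIs and a log-likelihood at least 3 natural log units above the next class, so class membership can differ from the study's. UMIs were summed per library and class and tested in classes with at least 20 nuclei in every library, with edgeR 4.0.16 and limma 3.58.1 in R 4.3.3 (TMM, filterByExpr, glmQLFit, glmQLFTest, Benjamini-Hochberg over the genes of a class, 3 residual degrees of freedom). Log2 fold changes are given ± SE. Levels, thinning to 1000 UMIs, exact permutation tests and correlations used log2(CPM + 5) where a log was taken, in python 3.11.15 with numpy 2.4.6, pandas 2.3.3 and scipy 1.17.1. The scripts were tested on simulated data.

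Contralateral and ipsilateral libraries of one severity came from the same pool of rats, which pairs them by design. The correlation of their deviations from the group means was -0.160 to 0.117 over 11 classes. The main test had no block, and a fit with the rat pool as a block was an alternative. Sham L and Sham R shared their rats as well, so that p-values did not measure the spread between animals. Other alternatives were DESeq2 1.42.0, its size factors, no filter on low counts, doublet-like nuclei kept, stricter and looser gates, only the 2 groups compared, free neuronal RNA subtracted, Bonferroni adjustment and each library left out in turn. Free RNA was subtracted in non-neuronal classes only.

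The members and gene lists were chosen with earlier results of these data known. The text names all 7 members, pathway genes called against Sham in at least 2 classes in the same direction or among the 3 largest changes called in a class, and the 3 genes most correlated with each member among those reaching 5 CPM in some class, markers left out. The limit of 2% of UMIs for Nrg1 and the removal of nuclei with an interneuron marker UMI were chosen after seeing the data. In Slc17a7 glutamatergic-like nuclei the removal also covered those with a GABAergic marker UMI. No genome of the files' build was used here, so positions and sequences are not given.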

Additional observations from a re-analysis of the deposited data

Results flagged for a closer look

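For 7 pairs of member and class the ipsilateral over contralateral ratio of CPM lay on opposite sides of 1 in the moderate and the severe pair of libraries, counting only pairs of tested classes with at least 20 UMIs in each ratio and both 95% Poisson intervals away from 1. With 1 library per side the intervals cover counting error only, so that the difference between the severities was not tested. In vascular-like nuclei Nrg1 had a ratio of 1.78 in the moderate and 0.138 in the severe pair, Nrg3 of 1.59 and 0.0771, and Erbb4 of 2.81 and 0.365. Nrg1 in committed oligodendrocyte-like nuclei had 1.7 and 0.0681. Erbb4 had 0.66 and 1.38 in medium spiny-like nuclei, 1.07 and 0.815 in MGE interneuron-like nuclei, and 0.875 and 1.26 in other GABAergic-like nuclei. The share of free neuronal RNA in vascular-like nuclei went from 12.9% in mMCAO contra to 19.7% in mMCAO ipsi and from 27.0% in sMCAO contra to 2.71% in sMCAO ipsi, and in committed oligodendrocyte-like nuclei from 25.7% to 25% and from 32.2% to 8.44%. It moved with the 3 vascular-like pairs of ratios in both directions, and its part in them was not tested.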

How the results depend on the processing

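The counts of called pairs of member and class changed with the processing. In MCAO ipsi against Sham, 12 in the main analysis became 1 with Bonferroni adjustment, 6 with free neuronal RNA subtracted and 7 with only the 2 groups fitted, and 0 to 20 with 1 library left out (0 without Sham L, 2 without Sham R, 20 without mMCAO ipsi). It was 8 to 15 under the other 6 settings. In MCAO ipsi against MCAO contra, 6 became 2 with Bonferroni, 11 with no filter on low counts and 3 with only the 2 groups, and 2 to 19 with 1 library left out (3 without mMCAO contra, 2 without sMCAO contra, 19 without mMCAO ipsi). With rat pool as the replicate block it was 4, the calls of Nrg1 in Slc17a7 glutamatergic-like nuclei (0.74, adjusted p = 0.0562) and Nrg3 in OPC-like nuclei (-0.89, adjusted p = 0.128) being lost, and among subclasses that of Nrg1 in Cux2 Glis3 nuclei. In MCAO contra against Sham, 1 became 0 with Bonferroni, the stricter gate and the looser gate, 4 with no filter and 4 with only the 2 groups, and 0 to 7 with 1 library left out (0 without Sham L, Sham R or sMCAO contra, 7 without either ipsilateral library). A group left with 1 library was assumed to vary like the others. The neighbour pairs in the order of classes that held in all libraries were 16, 25 with only the 4 libraries without infarction and 16 with a pseudocount of 1. For the 25, classes were sorted anew and a pair had to hold in 4 libraries only, which is easier to meet. The change of Nrg3 in mature oligodendrocyte-like nuclei reversed to 8.34 (adjusted p = 0.0326) with free neuronal RNA subtracted, on sums near 0, and Nrg1 and Nrg2 there gave no value. With the stricter gate Erbb4 in Chat Slc5a7 nuclei and Nrg4 in other GABAergic-like nuclei gave none. Free RNA was not subtracted in the neuronal classes or the subclasses. The counts with free RNA subtracted therefore hold the main calls of the neuronal classes unchanged, and the reversed change of Nrg3 also met the rule for a call.

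Of the 19 calls in classes, 4 remained without Sham L, 6 without Sham R, 12 to 17 without each other library, 13 by DESeq2, 12 of 17 with free RNA subtracted and 3 with Bonferroni. Of the 10 in subclasses, 4 to 10 remained without 1 library, 7 by DESeq2 and 4 with the stricter gate. The 12 of 17 calls kept with free RNA subtracted include every call in the neuronal classes. Nothing was subtracted there, so that those calls could not be lost. Kept under every setting run and without every library were Erbb4 in astrocyte-like nuclei against MCAO contra, in layer 6-like nuclei in both comparisons of MCAO ipsi, and in D2 medium spiny-like nuclei against Sham. For the subclasses these settings did not include a subtraction of free RNA. No cause was tested for any of the changes, those kept under every setting included. Erbb2, Erbb3 and Nrg4 were sparse and passed the filter in 0, 2 and 3 of 11 classes.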

Other observations

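Some classes too small for a test held high values. Ependymal-like nuclei had Nrg1 at 1585, 6667, 1927, 1518, 3264 and 1440 CPM in the order of the libraries above, with Sham R the highest. That library had 10 ependymal-like nuclei and a share of free neuronal RNA of 84.7% in them, against 2.98% to 46.6% in the other libraries. Per 1000 panel UMIs, Nrg1 had 139, 316, 568, 476, 635 and 3102 UMIs in ependymal-like nuclei. It had 129 to 296 in Slc17a7 glutamatergic-like and 303 to 363 in medium spiny-like nuclei. Over all libraries 68.6% of ependymal-like nuclei had a UMI of Nrg1, at 2009 CPM. Fibroblast-like nuclei of mMCAO ipsi had 5107 CPM, from 345 UMIs in 49 nuclei. Among nuclei that the gate left without a class, 22 of 2962 in mMCAO ipsi and 8 of 1228 in sMCAO ipsi passed the limit of 2% of UMIs from Nrg1.

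Between severities, the sMCAO ipsi over mMCAO ipsi ratio of CPM was taken for 46 pairs of member and class. Its 95% Poisson interval lay above 1 in 8 and below 1 in 23, with a median ratio of 0.910. For Sham R over Sham L, from the same rats, 6 of 46 lay above and 13 below, with a median of 0.970, and for sMCAO contra over mMCAO contra 10 of 47 lay above and 10 below. With 1 library per side these ratios cover counting error only.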
